A study of Homo sapiens with 4 samples.

Results

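Levels of 10 genes of the BMP and TGF-beta pathways were followed through a MYCN knockdown. They were ID1, ID2, ID3, ID4, SMAD6, SMAD7, BMP7, BMPR2, TGFBR1 and TGFBR2, chosen by gene symbol, and all 10 were among the 26364 genes listed in each sample. RNA-seq was done in BE(2)C cells, an established human neuroblastoma line that carries an amplified MYCN gene. The control group (Ctrl) was given a control siRNA and the other group (MYCN KD) an siRNA that targets MYCN, with 2 samples in each and 4 in all. Both groups were transfected for 6 h with a lipid reagent, and total RNA was extracted the next day. The labels give the siRNA at 80 nM, a concentration that differs from the one in the methods of the study. The methods speak of biological replicates without saying how they were made, and the labels do not say whether they were separate cultures. The p-values thus rest only on the spread between these samples of a single cell line, which may be technical. That spread was linked between the groups, as described below.

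BMP and TGF-beta ligands bind pairs of type II and type I receptor kinases, which phosphorylate SMAD proteins that then enter the nucleus and switch on target genes. ID1, ID2 and ID3 are among the best known BMP target genes, and their proteins bind E proteins so that these can no longer pair with tissue-specific bHLH factors on DNA. SMAD6 and SMAD7 are inhibitory SMADs that are themselves induced by the signal and shut it down. In neural crest cells and neuroblastoma, ID proteins are known for holding back differentiation, and ID2 for its links to MYCN and the retinoblastoma protein.

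The bases upstream of the ID1, ID2, ID3 and BMPR2 start sites are shown because these 3 ID genes had the highest levels of the 10 genes and BMPR2 was the gene that passed the test. Each is the 250 bases before the RefSeq start, read 5′ to 3′ on the gene's strand, in GRCh38.p14. Capitals mark matches on either strand to CANNTG (any E-box, which includes CACGTG, the E-box of MYC proteins), GGCGCC (a GC-rich SMAD motif) and CAGAC (a SMAD-binding element). ID1 is at chr20:31605039-31605288 on the plus strand, ID2 at chr2:8681806-8682055 on the plus strand, ID3 at chr1:23559502-23559751 on the minus strand and BMPR2 at chr2:202376077-202376326 on the plus strand.
ID1: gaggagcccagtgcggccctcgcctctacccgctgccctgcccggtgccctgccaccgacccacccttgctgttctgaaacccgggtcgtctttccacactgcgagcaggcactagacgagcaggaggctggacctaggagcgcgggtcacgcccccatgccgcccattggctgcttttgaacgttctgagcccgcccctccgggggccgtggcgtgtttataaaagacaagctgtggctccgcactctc
ID2: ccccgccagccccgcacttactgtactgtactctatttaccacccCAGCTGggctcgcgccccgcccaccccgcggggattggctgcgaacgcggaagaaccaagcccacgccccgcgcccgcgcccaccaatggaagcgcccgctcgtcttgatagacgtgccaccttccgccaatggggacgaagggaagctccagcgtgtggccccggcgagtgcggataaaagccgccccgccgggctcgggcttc
ID3: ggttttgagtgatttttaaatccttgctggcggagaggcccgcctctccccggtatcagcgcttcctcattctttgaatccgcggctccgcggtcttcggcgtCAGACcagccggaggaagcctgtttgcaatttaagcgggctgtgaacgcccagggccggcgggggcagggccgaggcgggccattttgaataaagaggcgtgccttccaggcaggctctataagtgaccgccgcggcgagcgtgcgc
BMPR2: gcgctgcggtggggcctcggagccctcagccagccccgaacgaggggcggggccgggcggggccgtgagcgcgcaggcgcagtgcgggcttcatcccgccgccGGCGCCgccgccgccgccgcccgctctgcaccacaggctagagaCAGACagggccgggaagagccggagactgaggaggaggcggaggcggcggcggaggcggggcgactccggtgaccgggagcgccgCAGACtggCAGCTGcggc
The ID1 window held no match to any of the 4 motifs. ID2 held 1 CANNTG match and ID3 held 1 CAGAC match. BMPR2 held 1 CANNTG, 1 GGCGCC and 2 CAGAC matches. Windows were found for 9 of the 10 genes, BMP7 being the gene without one, and several starts for SMAD7, TGFBR1 and TGFBR2 brought the number to 19. CACGTG was in 0 of these 19 windows, CANNTG in 11, GGCGCC in 2 and CAGAC in 9. Among all 35116 windows of this length in the table, the shares with a match were 6.34% for CACGTG, 61.8% for CANNTG, 16.4% for GGCGCC and 38.0% for CAGAC. A match is a run of letters, and nothing on binding was measured with it here.

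Levels are given as RPKM, reads scaled to the length of the gene and to the mapped reads of the sample, which the authors calculated after removing unwanted variation. The totals of reads behind the samples lay between 29055819 and 34142988. MYCN, at 16080672 to 16087129 of GRCh37 chromosome 2, checks the labels. It stood at 1068 and 1073 RPKM in the controls, against 720.2 and 718 RPKM after knockdown, a ratio of the means of 0.672 (log2 fold change -0.57, SE 0.0286, limma adjusted p = 0.00361). MYCN RNA was thus lowered but still present at a high level. All 10 adrenergic neuroblastoma markers, such as HAND2 and DBH, were above 1 RPKM on average, with summed levels of 3860 and 3555 RPKM in the controls, against 5017 and 5437 RPKM after knockdown. Of the markers of other cell types, none of 3 endothelial and 1 of 4 leukocyte markers (CD68) passed 1 RPKM. Summed leukocyte markers were at 4.29 and 3.49 RPKM in the controls, against 9.45 and 11.5 RPKM after knockdown, with CD68 holding nearly all of it and PTPRC, which defines leukocytes, at 0.0033 RPKM on average. Of 6 fibroblast markers 4 passed 1 RPKM, with sums of 23.0 and 25.1 RPKM in the controls, against 31.1 and 28.5 RPKM after knockdown, and 3 of those 4 were called higher in MYCN KD by the test described below, COL1A1 (ratio 2.41), DCN (1.69) and PDGFRB (1.13). LUM was not called, and COL1A2 was at 0.0207 RPKM. Summed endothelial markers, all low, were at 0.286 and 0.367 RPKM in the controls, against 0.638 and 0.504 RPKM after knockdown. The part of these marker levels in the results for the 10 genes was not tested. In bulk RNA, fewer cells with a transcript and less of it per cell cannot be told apart.

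Of the 10 genes, 8 had a mean of at least 1 RPKM and were tested on the log2(RPKM + 1) scale with limma and Benjamini-Hochberg adjustment over 11411 genes, which understates the change of genes with low RPKM. A gene was called at an adjusted p under 0.05. BMPR2, the type II receptor for BMPs, was called higher in MYCN KD, and the other 7 were not called. This was 1 of 8 called, or 12.5%, where 48.1% of all tested genes were called. By direction, 1 member was called higher against 25.3% of all tested genes, and 0 lower against 22.8%. At an unadjusted p under 0.05, limma gave 2 members higher (BMPR2 and TGFBR1) and 1 lower (SMAD7), where 30.3% and 26.9% of all tested genes were. Without Ctrl replicate 2, limma called 2 members higher and 1 lower, where 24.4% and 19.2% of all tested genes were. Without MYCN KD replicate 2 it called 2 members higher and 0 lower, where 23.7% and 18.9% of all tested genes were. The groups did not overlap for 4 of the 8 genes, 3 above Ctrl and 1 below, where 76.2% of all tested genes did not overlap, 40.4% above and 35.8% below. The median log2 fold change of the 8 genes was 0.05, beside 0.03 for all tested genes.

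**Figure D1:**
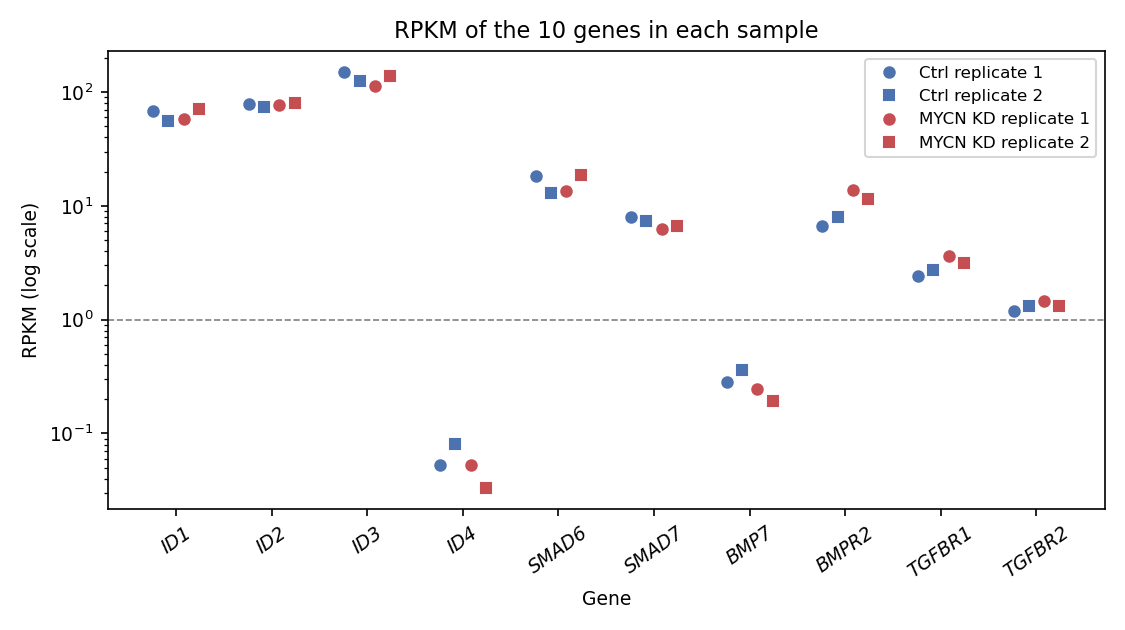
RPKM of the 10 genes (log axis) in each sample, Ctrl in blue and MYCN KD in red, with circles for replicate 1 and squares for replicate 2; the dashed line is the filter at 1 RPKM. ID1, ID2, ID3 and SMAD6 overlap between the groups, BMPR2 stands at 6.61 and 8.01 RPKM in the controls, against 13.8 and 11.4 RPKM after knockdown, and ID4 and BMP7 lie under the line.

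The ID genes were read first. ID3 lies at 23884417 to 23885992 (minus strand) of GRCh37 chromosome 1, with 3 exons in its canonical transcript. Ctrl replicates 1 and 2 had 151 and 124 RPKM, and the knockdown replicates had 114 and 139 RPKM. The ranges overlapped, since MYCN KD replicate 2 was above Ctrl replicate 2. On the log2 scale the difference was -0.12 (SE 0.154, 95% interval -0.58 to 0.33, limma adjusted p = 0.547). Means were 138 ± 19.4 RPKM in Ctrl and 126 ± 17.3 RPKM in MYCN KD (SD, n = 2). Leaving out Ctrl replicate 2 gave -0.27 with a limma adjusted p of 0.0476, while leaving out Ctrl replicate 1 or MYCN KD replicate 1 turned the sign, to 0.02 in each case.

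ID2 lies at 8818975 to 8824591 (plus strand) of GRCh37 chromosome 2, with 3 exons. RPKM in Ctrl replicates 1 and 2 came to 77.8 and 74.5, and after knockdown to 77.0 and 80.3. Its 4 samples were closer together than those of the other ID genes, and the groups overlapped. Limma put the log2 fold change at 0.05 (SE 0.0446, limma adjusted p = 0.437), and its 95% interval, -0.08 to 0.18, was the narrowest of the 8. ID2-AS1, an antisense gene that shares 3020 bases with ID2, was at 0.652 and 0.755 RPKM in the controls, against 1.29 and 1.11 RPKM after knockdown. Whether the library kept strand is not given in the sources used here, so reads of ID2 and ID2-AS1 cannot be told apart.

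ID1 lies at 30193086 to 30194318 (plus strand) of GRCh37 chromosome 20 and has 2 exons. The controls had 67.8 and 55.3 RPKM, and knockdown replicates 1 and 2 had 57.9 and 70.5 RPKM. Ctrl replicate 1 and MYCN KD replicate 2 were the high samples, and the groups overlapped. Its log2 fold change was 0.06 (SE 0.155, 95% interval -0.40 to 0.52, limma adjusted p = 0.773), and it turned to -0.08 without Ctrl replicate 2 or without MYCN KD replicate 2. The data thus bounded the change of ID2 more closely than that of ID1 or ID3.

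ID4, at 19837601 to 19842428 (plus strand) of GRCh37 chromosome 6, was near the bottom of the range. It stood at 0.0529 and 0.0807 RPKM in Ctrl, from 7 and 10 reads, and at 0.0533 and 0.0334 RPKM in MYCN KD, from 6 and 4 reads. A difference between the groups was not detectable at this depth. With no filter on low values its log2 fold change was -0.03 with a limma adjusted p of 0.325.

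The 4 ID genes summed to 297 and 254 RPKM in Ctrl and to 249 and 289 RPKM in MYCN KD, a mean of 275 ± 30.5 and 269 ± 28.6 RPKM (SD). ID3 made up 51.0% and 48.8% of this sum in the controls, against 45.8% and 47.9% after knockdown. ID2 made up 26.2% and 29.3% in the controls, against 30.9% and 27.8% after knockdown. ID1 held 22.8% and 21.8% in the controls, against 23.2% and 24.4% after knockdown, and ID4 at most 0.0318%. ID3 was thus the most abundant ID transcript in every sample, followed by ID2 and then ID1, and these 3 did not overlap each other within either group.

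The replicates of a group lay closer together in the ratio of ID3 to ID1 than in either gene. The ratio of ID3 to ID1 RPKM was 2.23 and 2.24 in the controls, against 1.97 and 1.97 after knockdown. The ratio was lower in both MYCN KD samples, with means of 2.24 and 1.97, although each gene on its own overlapped between the groups. The two-sided exact permutation test gave p = 0.333, which is the smallest that 2 against 2 samples can give, and this ratio was chosen after its values were seen. The ratio of ID3 to ID2 overlapped between the groups, at 1.95 and 1.66 in the controls, against 1.48 and 1.73 after knockdown. So did that of ID1 to ID2, at 0.872 and 0.743 in the controls, against 0.752 and 0.877 after knockdown.

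The 3 tested genes whose profile over the 4 samples was nearest to that of ID3, by Euclidean distance between centred log2(RPKM + 1) values, were LOC100233156 at 0.0168, SLC2A1 at 0.0233 and TIGD5 at 0.0323. SLC2A1, a glucose transporter gene, stood at 48.1 and 39.3 RPKM in the controls, against 35.5 and 43.3 RPKM after knockdown. All 3, like ID3, were highest in Ctrl replicate 1 and lowest in MYCN KD replicate 1, which follows from how they were picked.

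Of the inhibitory SMADs, SMAD7 blocks both TGF-beta and BMP receptors. It lies at 46446223 to 46477335 (minus strand) of GRCh37 chromosome 18, with 4 exons. Ctrl replicates 1 and 2 had 8.03 and 7.42 RPKM, and the knockdown replicates had 6.22 and 6.71 RPKM. Both MYCN KD samples were below both Ctrl samples. The log2 fold change was -0.23 (SE 0.0649, 95% interval -0.42 to -0.03) with a limma p of 0.0318 before adjustment and 0.0617 after it, so it missed the threshold.

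SMAD6, which acts mainly on BMP receptors, lies at 66994574 to 67075187 (plus strand) of GRCh37 chromosome 15, with 4 exons. RPKM in Ctrl replicates 1 and 2 came to 18.2 and 12.9, and after knockdown to 13.4 and 18.7. The spread within each group was far wider than the gap between the group means, 15.6 ± 3.75 and 16.0 ± 3.74 RPKM (SD). The estimated log2 fold change was 0.04 (SE 0.248, limma adjusted p = 0.910), and the 95% interval from -0.69 to 0.77 was the widest of the 8. It turned to -0.20 without Ctrl replicate 2 and to -0.19 without MYCN KD replicate 2. The ratio of SMAD6 to SMAD7 RPKM was 2.27 and 1.74 in the controls, against 2.15 and 2.78 after knockdown, so that SMAD6 was the more abundant of the pair in every sample.

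BMP7, a secreted BMP ligand, lies at 55743809 to 55841697 (minus strand) of GRCh37 chromosome 20, with 7 exons, and was below the filter. The controls had 0.283 and 0.365 RPKM, and knockdown replicates 1 and 2 had 0.248 and 0.192 RPKM. Both MYCN KD samples were below both Ctrl samples, but the counting intervals overlapped. The values rest on 39 and 47 reads in Ctrl and on 29 and 24 in MYCN KD, and the exact 95% Poisson intervals ran from 27.7 to 53.3 and from 34.5 to 62.5 reads in Ctrl and from 19.4 to 41.6 and from 15.4 to 35.7 reads in MYCN KD. These intervals cover counting error only, of reads that the authors had already adjusted. With no filter, the log2 fold change was -0.12 with a limma adjusted p of 0.152. The antisense gene BMP7-AS1 was listed at 0 in all 4 samples.

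BMPR2 lies at 203241050 to 203432474 (plus strand) of GRCh37 chromosome 2, with 13 exons. Ctrl replicates 1 and 2 had 6.61 and 8.01 RPKM, and the knockdown replicates had 13.8 and 11.4 RPKM. Both MYCN KD samples were above both Ctrl samples. The mean rose from 7.31 ± 0.994 to 12.6 ± 1.66 RPKM (SD), a ratio of 1.73, with a log2 fold change of 0.71 (SE 0.137, 95% interval 0.31 to 1.12, limma adjusted p = 0.0261). This change was larger in size than that of 90.0% of tested genes. The call held in all 13 alternative settings. Among these, a crossed replicate block and a GC adjustment, described below, were added after the data were seen. They called 97.9% and 70.5% of all genes tested, so a call under them says little about BMPR2. Leaving out 1 sample at a time gave log2 fold changes from 0.59 to 0.84. The exact permutation p for BMPR2 alone was 0.333, the smallest possible.

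The TGF-beta receptors were lower in level than BMPR2. TGFBR1, the type I receptor, lies at 101866320 to 101916474 (plus strand) of GRCh37 chromosome 9, with 9 exons. RPKM in Ctrl replicates 1 and 2 came to 2.40 and 2.74, and after knockdown to 3.59 and 3.16. Both MYCN KD samples were above both Ctrl samples, with a ratio of the means of 1.31. The log2 fold change was 0.29 (SE 0.0837, 95% interval 0.05 to 0.54), with a limma p of 0.0311 before and 0.0605 after adjustment. Without Ctrl replicate 2 it was 0.36 with a limma adjusted p of 0.0326, and without MYCN KD replicate 2 it was 0.36 with a limma adjusted p of 0.0309, so the call for TGFBR1 depended on which library was left out.

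TGFBR2, the type II receptor that binds TGF-beta first, lies at 30648093 to 30735634 (plus strand) of GRCh37 chromosome 3, with 7 exons. The controls had 1.18 and 1.31 RPKM, and knockdown replicates 1 and 2 had 1.46 and 1.33 RPKM. The MYCN KD samples were above the Ctrl samples, though Ctrl replicate 2 and MYCN KD replicate 2 were close. The fitted log2 fold change was 0.09 (SE 0.0550, 95% interval -0.07 to 0.25, limma adjusted p = 0.251), and it was -0.03 under quantile normalization. The ratio of BMPR2 to TGFBR2 RPKM was 5.58 and 6.12 in the controls, against 9.47 and 8.63 after knockdown, with the smallest possible exact permutation p of 0.333.

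**Figure D2:**
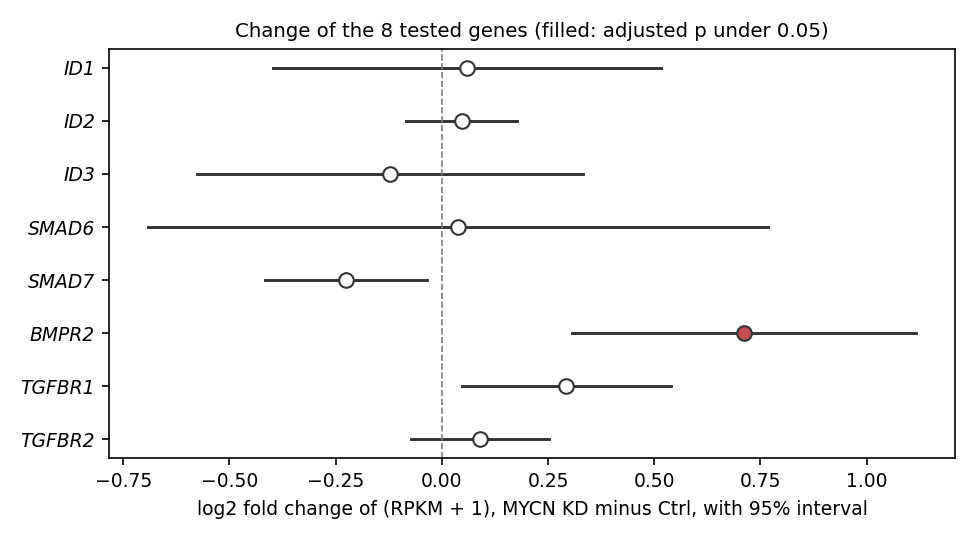
Log2 fold change of (RPKM + 1), MYCN KD minus Ctrl, for the 8 tested genes, with bars for the 95% interval from limma. BMPR2 is the filled point at 0.71, and the bars of ID1, ID3 and SMAD6 are wide and cross 0.

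By mean RPKM in Ctrl the order was ID3, ID2, ID1, SMAD6, SMAD7, BMPR2, TGFBR1, TGFBR2, BMP7 and ID4. SMAD7 and BMPR2 overlapped in Ctrl. In MYCN KD BMPR2 stood above SMAD7 in both samples and overlapped SMAD6, which ran from 13.4 to 18.7 RPKM beside 11.4 to 13.8 RPKM for BMPR2. No other neighbours in the order overlapped within a group.

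The wide intervals of ID1, ID3 and SMAD6 came from replicates that lay apart. On the log2(RPKM + 1) scale, replicate 1 minus replicate 2 in Ctrl was 0.29 for ID1, 0.29 for ID3 and 0.46 for SMAD6. In size this gap was larger than that of 96.0%, 95.8% and 99.3% of tested genes. In MYCN KD the same difference was -0.28, -0.28 and -0.45. BMPR2, the gene called, had a gap of -0.24 in Ctrl and 0.25 in MYCN KD. Its Ctrl gap was larger in size than that of 91.6% of tested genes. The gaps were thus of nearly equal size and opposite sign in the 2 groups. This held across genes, with a Pearson correlation of -0.985 between the Ctrl gap and the MYCN KD gap over 11411 genes, which are not independent replicates. Limma counts the gaps of the 2 groups as independent deviations, which they were not. Its SE, p-values and shares of genes called may therefore be wrong, those for BMPR2, TGFBR1 and SMAD7 included.

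The gap moved with the base composition of the transcripts. Across 10313 tested genes with a known GC content, its correlation with GC content was 0.734 in Ctrl and -0.739 in MYCN KD. When these genes were split into 5 bins of GC content, the median gap in Ctrl was -0.17 in the lowest bin and 0.12 in the highest. SMAD6, ID1, SMAD7 and ID3 have transcripts of 58.8%, 57.9%, 57.0% and 56.7% GC, while ID2 has 42.5%, BMPR2 39.1% and TGFBR1 38.8%. For SMAD6, ID1 and ID3 the gap in Ctrl was positive and above the median of every bin, and for BMPR2, at -0.24, and TGFBR1, at -0.14, it was negative. ID2 went against this, with a gap of 0.06 in Ctrl where the median of its bin was -0.13. The change between the groups had a correlation of 0.104 with GC content. After the gene values were adjusted for GC content in each sample, an alternative added after the data were seen, BMPR2 was at 0.70 (limma adjusted p = 0.00203). TGFBR1 was at 0.28 (limma adjusted p = 0.00245), TGFBR2 at 0.13 (limma adjusted p = 0.0205) and SMAD7 at -0.30 (limma adjusted p = 0.00225), all past the threshold. With this adjustment 35.1% of 10313 genes were called higher and 35.4% lower, beside 3 and 1 of the 8 members. ID1 and SMAD6 then had the opposite sign, at -0.02 and -0.05, and were not called.

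**Figure D3:**
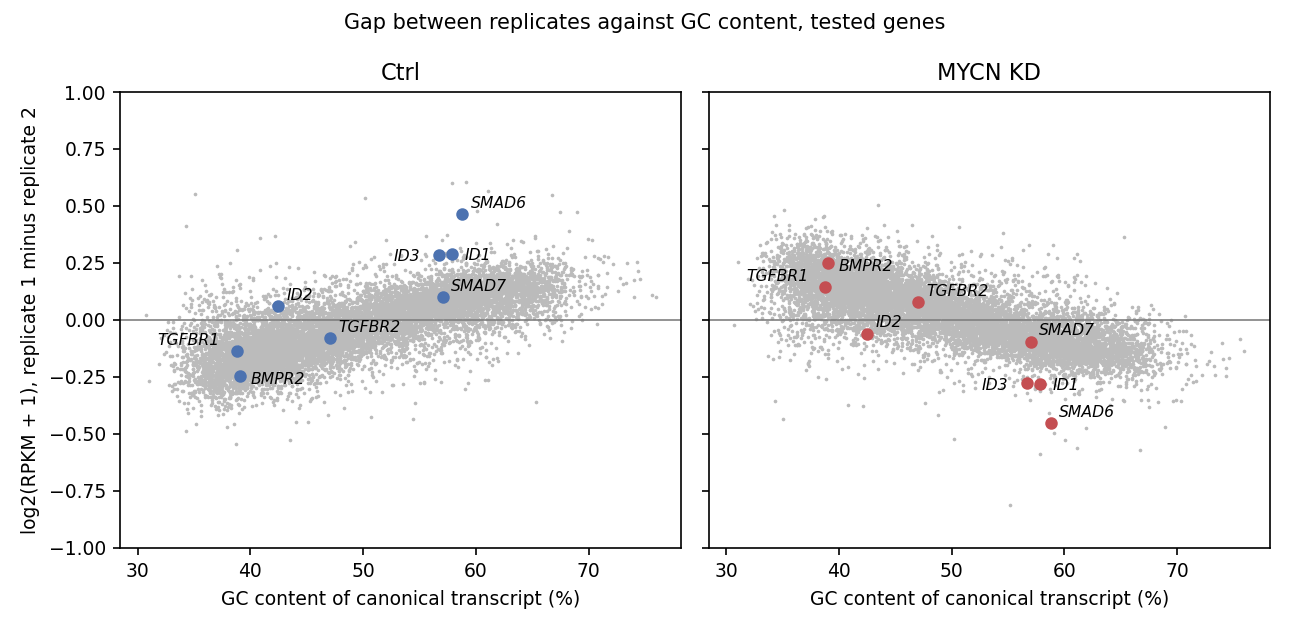
Difference in log2(RPKM + 1) between replicate 1 and replicate 2 against GC content of the canonical transcript (%), in Ctrl on the left and MYCN KD on the right, with tested genes of known GC content in grey and the 8 tested members in colour; 1 gene in Ctrl lies outside the axis. The cloud climbs with GC content in Ctrl (correlation 0.734) and descends in MYCN KD (-0.739), and SMAD6, ID1 and ID3 lie at its outer edge in both.

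BMPR2 is also a long gene. Its length behind the RPKM values was 12070 bases, beside 6527 for TGFBR1 and 1232 for ID1. The 315 tested genes of at least 10000 bases had a median log2 fold change of 0.16, and 31.4% of them were called higher. Across tested genes the correlation of the change with log2 length was 0.151. The part of length in the change of BMPR2 was not tested.

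To place the 10 genes, 95 further genes of the pathways were listed by role, of which 51 passed the filter. Of these 14 were called higher and 10 lower in MYCN KD, or 47.1% in all, close to the 48.1% of all tested genes. When total RPKM was made equal in all samples, the counts were 14 higher and 6 lower, where 28.7% and 18.6% of all tested genes were, and 6 were also called lower without Ctrl replicate 2 or without MYCN KD replicate 2. Of the 51, 23 lay above Ctrl without overlap and 12 below, where 40.4% and 35.8% of all tested genes did, and the median log2 fold change was 0.13, beside 0.03 for all tested genes. The counts by role given below rest on few genes each. They stand beside 25.3% of all tested genes called higher and 22.8% called lower, and are not read as results about a role.

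All 12 listed BMP and GDF ligands were below the filter, with BMP6 the highest at 0.546 RPKM on average. BMP8B and BMP8A, at 0.514 and 0.124 RPKM, are close copies between which reads may be split. Of the TGF-beta and activin ligands 4 of 10 were tested, and 2 rose. TGFB1, the main TGF-beta ligand, was at 60.3 and 50.8 RPKM in the controls, against 110.3 and 130.2 RPKM after knockdown, a log2 fold change of 1.10 (SE 0.132, limma adjusted p = 0.0102). INHA, the inhibin alpha subunit, rose from a mean of 1.32 to 2.52 RPKM, and TGFB3, another TGF-beta ligand, fell from 2.45 to 1.62 RPKM.

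Among the type I receptors 1 of 5 tested rose and none fell. ACVRL1, which pairs with BMPR2 to bind BMP9 and BMP10 and is best known from endothelium, was at 11.6 and 11.9 RPKM in the controls, against 31.7 and 30.9 RPKM after knockdown. Its log2 fold change was 1.34 (SE 0.0399, limma adjusted p = 0.00359), beside 0.71 for BMPR2. The summed endothelial markers PECAM1, CDH5 and VWF were also higher in both MYCN KD samples. The sums were 0.638 and 0.504 RPKM, against 0.286 and 0.367 RPKM in Ctrl. CDH5 held most of each sum, at 0.525 and 0.384 RPKM, against 0.220 and 0.303 RPKM in Ctrl. All 3 markers were below 1 RPKM on average, and PECAM1 overlapped between the groups. The part of these markers in the change of ACVRL1 was not tested. GDF2 and BMP10, the genes of the ligands named, were at 0.0085 RPKM on average and listed at 0. BMPR1A and BMPR1B, also type I receptors for BMPs, were not called, at log2 fold changes of 0.05 and -0.02. ACVR1, another type I receptor, was not called either, at 0.13, with both MYCN KD samples above both Ctrl samples. Of the other type II receptors AMHR2, the receptor for anti-Müllerian hormone, rose from 1.19 to 1.80 RPKM and ACVR2B, an activin receptor, fell from 4.17 to 2.89 RPKM.

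Of 4 tested coreceptors and related genes 2 rose. BAMBI, a decoy receptor without a kinase that is itself a target of the signal, went from 59.3 ± 1.87 to 79.7 ± 2.42 RPKM (SD), a log2 fold change of 0.42 (limma adjusted p = 0.00842). RGMA, a BMP coreceptor, rose from 1.33 to 1.83 RPKM. None of the 6 SMADs that carry the signal, all tested, was called higher. SMAD3 (TGF-beta side) fell from 4.17 to 2.85 RPKM and SMAD1 (BMP side) from 6.03 to 4.65 RPKM, with log2 fold changes of -0.43 and -0.32, and the other 4 were not called.

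Extracellular antagonists were mostly below the filter, with 3 of 14 tested and NOG, the noggin gene, at 0.0039 RPKM on average. SOSTDC1, a BMP antagonist, fell from 1.99 to 1.47 RPKM. Of 4 tested genes of latency and activation 3 were called higher and none lower, where 25.3% and 22.8% of all tested genes were. LTBP2, a latent TGF-beta binding protein, rose from 2.25 to 4.40 RPKM, a log2 fold change of 0.73, and FURIN, a protease that cuts ligand precursors, from 22.2 to 30.4 RPKM.

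Of 8 tested intracellular repressors 1 rose and 3 fell. TGIF2, a SMAD corepressor, had the largest fall of the 51 genes, from 14.8 to 6.16 RPKM (log2 fold change -1.15, limma adjusted p = 0.00359). STRAP, which acts with SMAD7 at the receptor, fell from 142 to 107 RPKM, and SMURF1, a ubiquitin ligase that SMAD6 and SMAD7 bring to receptors, rose from 6.16 to 8.12 RPKM. Of 5 other tested SMAD target genes 3 rose and 1 fell. CDKN2B, a cell cycle inhibitor gene, rose from 1.07 to 1.74 RPKM, and HEY1, a repressor gene also driven by Notch, fell from 20.4 to 15.7 RPKM.

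The partners of ID proteins were listed too. None of the 3 E protein genes was called, TCF4 being nearest the threshold at 9.39 and 12.2 RPKM in the controls, against 20.7 and 16.1 RPKM after knockdown (limma adjusted p = 0.0503). Of 4 tested bHLH partners, HAND2, a factor of sympathetic neurons, rose from 214 to 316 RPKM. None of the 3 pocket protein genes was called, and RB1, which ID2 protein can bind, was at 15.5 and 19.4 RPKM in the controls, against 28.2 and 22.7 RPKM after knockdown (limma adjusted p = 0.0787).

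**Figure D4:**
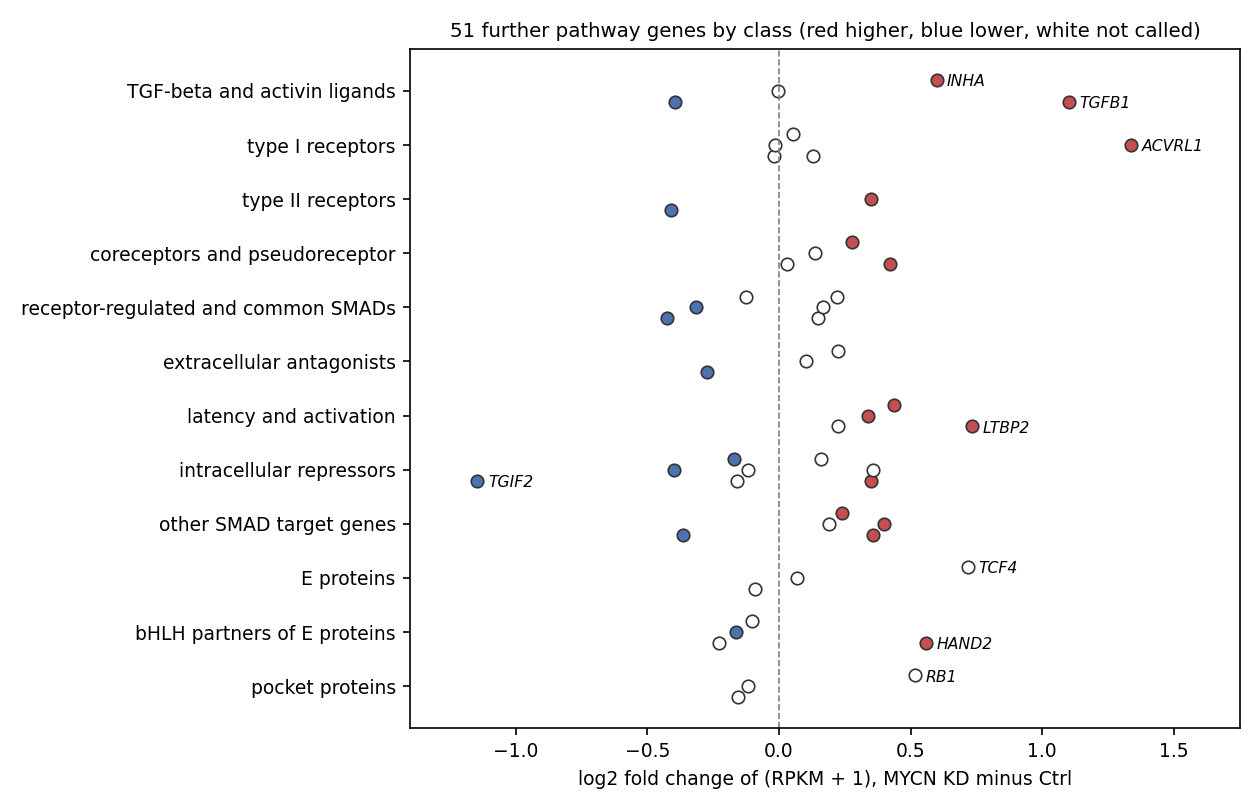
Log2 fold change of (RPKM + 1), MYCN KD minus Ctrl, of the 51 further genes that passed the filter, 1 point per gene in rows by role, filled red for called higher, blue for called lower and white for not called. ACVRL1 at 1.34 and TGFB1 at 1.10 stand farthest to the right and TGIF2 at -1.15 farthest to the left.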

How the data were processed

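RNA-seq of 4 BE(2)C samples was used, grouped by the sample labels. Reads had been aligned by the authors to hg19 (HISAT2 2.1.0) and counted per RefSeq gene (featureCounts). After DESeq2 and RUVSeq, which takes out unwanted variation, the authors turned the adjusted counts into the deposited RPKM. The number of factors removed is not given in the sources used here. Removal of variation can narrow or link the spread between replicates.

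Tests used limma 3.58.1 on log2(RPKM + 1) under R 4.3.3 (lmFit, eBayes with a trend, no block) for 11411 genes with a mean of at least 1 RPKM, at a threshold of 0.05 after Benjamini-Hochberg adjustment. The code was tested on simulated data. For limma these data had independent replicates and few changed genes, without the mirrored gaps described above. That test thus does not bear on whether the limma p-values hold here. The read total of Ctrl replicate 1 was recovered from the RPKM steps of 496 small RNA genes of known length. Of these, 94.2% came out whole to within 0.1% of the read number. The other totals followed from the commonest RPKM ratios between samples. The length of each gene was then the smallest that gave whole reads in every sample. The total was chosen to make most of these small RNA genes whole, so the share of 94.2% is not an independent check of it. Nor does the share check the length or reads of single genes. GENCODE lifted to GRCh37 gave positions, and GC content for 90.4% of tested genes, and RefSeq on GRCh38.p14 gave the upstream sequence. Tables and figures were made in Python 3.11.15 (matplotlib 3.10.9, pandas 2.3.3, numpy 2.4.6, scipy 1.17.1).

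The members and lists were chosen with earlier results of these data known. All 10 members and MYCN are named, with up to 2 called rises and 2 called falls per role whose groups did not overlap and the 3 genes nearest to the most abundant ID gene. Other genes were named after their values were seen. Some genes that this rule names are not reported here. Alternatives were another pseudocount (0.1), no filter or a filter at 5 RPKM, 2 scalings, eBayes without a trend, the replicate number as a block, each sample left out, and, added after seeing the data, a crossed block and an adjustment for GC content.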

Additional observations from a re-analysis of the deposited data

How the results depend on the processing

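BMPR2 and MYCN kept their direction and call in all 13 alternatives, though the crossed block and the GC adjustment called 97.9% and 70.5% of all genes tested. The count of members called higher, 1, was 2 under quantile normalization (25.4% of all tested genes), 3 with the GC adjustment (35.1%) and from 1 to 2 with 1 sample left out (21.6% to 24.4%). The count called lower, 0, was 1 with the GC adjustment (35.4%) and from 0 to 1 with 1 sample left out (18.9% to 21.3%). Of the pathway genes, 14 higher and 10 lower became 7 and 6 with a mean of at least 5 RPKM, where 30 were tested (23.8% and 26.8% of all genes tested there). Lower calls were also 6 with samples rescaled to the same total (18.6% of all genes) and from 6 to 7 with 1 sample left out, with 6 without Ctrl replicate 2 and without MYCN KD replicate 2. The cause of these shifts was not tested.

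With 1 sample left out, the lone sample of its group is taken to vary like the other group. The log2 fold change turned sign for ID1 and SMAD6 with the GC adjustment, to -0.0215 and -0.0534, and for TGFBR2 under quantile normalization, to -0.0324. With 1 sample left out it ran from -0.0848 to 0.204 for ID1, from -0.265 to 0.021 for ID3 and from -0.195 to 0.27 for SMAD6. TGFBR1 passed the threshold under quantile normalization at 0.194 (limma adjusted p = 0.0476).

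Replicates with the same number deviated in opposite directions (correlation -0.985), so the numbers were not taken to pair the samples. With the replicate block, 1 member was called higher and 0 lower, 10 pathway genes higher and 5 lower, and of all tested genes 2077 higher and 1851 lower in place of 2890 and 2599. Crossing the numbers, added after seeing the data, gave 6 members higher and 2 lower, and 30 pathway genes higher and 20 lower. Of all tested genes it called 5910 higher and 5262 lower, or 97.9%. The crossing was built on the mirrored gaps seen in these data, so calls under it carry no information on single genes. A mean of at least 5 RPKM left 1868 of all genes higher. At this depth ID4 and BMP7 rest on too few reads for a small change to be detected.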
